A study of Homo sapiens with 4 samples.

Results

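The CRL4-CDT2 ubiquitin ligase and the genes around it were followed by chromatin accessibility. The 9 genes, DTL, DDB1, CUL4A, CUL4B, RBX1, PCNA, CDT1, GMNN and SKP2, were chosen by name for their roles and not by their values. Earlier results of these data were known when the genes were chosen. Their peaks were the rows of the authors' first deposited table that carry one of these symbols, 9 of 20556 peaks, from 7 of the 9 genes. The overlapping rows of the authors' second deposited table were 8 of 13577 peaks, from 6 genes. No peak carried the symbol of CUL4A or CDT1.

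The study asked how loss of SETD8, now named KMT5A, alters open chromatin in Kasumi-1 cells, a line grown from acute myeloid leukaemia with the t(8;21) translocation. The groups were SETD8 knockout by CRISPR/Cas9 (titled sgSETD8, 2 libraries) and control cells titled sgNT with the genotype label WT (2 libraries). The assay was ATAC-seq: a transposase inserts sequencing adapters where chromatin is open, so reads pile up at accessible sites. Both groups were the same line in the same medium, and the labels do not say whether the knockout cells were a pool or 1 clone, or how long after editing they were taken.

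CRL4-CDT2 is a cullin-RING ligase. CUL4A or CUL4B is the scaffold, RBX1 is the RING subunit that brings the ubiquitin-loaded E2 enzyme, DDB1 is the adaptor, and DTL encodes CDT2, the receptor that holds the substrate. CDT2 recognises proteins only while they are bound to PCNA on chromatin, which restricts their destruction to S phase and DNA repair. SETD8, which monomethylates histone H4 at H4K20, is one of these substrates, as are the licensing factor CDT1 and the cyclin-dependent kinase inhibitor p21, the product of CDKN1A. GMNN (geminin) binds CDT1 and blocks re-licensing of origins, and SKP2 is the F-box receptor of a second ligase, SCF, which also targets CDT1 and p21.

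The sequences just before the start sites are shown first, because a peak lies over each of the starts below but that of CDT1. Of the 17 start sites that RefSeq (GRCh38.p14, the same assembly as hg38) gives for the 9 genes, 6 are shown, each with the 250 bases before the start, 5′ to 3′. They were picked to set side by side the receptor gene DTL, its substrate CDT1, the CDT1 inhibitor GMNN, both PCNA starts, and DDB1 as a core subunit with none of the marked letters. Capitals mark E2F-type letters (TTTGGCG, the variant with TTTCCCG, or the variant with TTTCGCG, on either strand) and the letters CCAAT, the CCAAT box, on either strand.

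DTL, + strand, chr1:212035498-212035747: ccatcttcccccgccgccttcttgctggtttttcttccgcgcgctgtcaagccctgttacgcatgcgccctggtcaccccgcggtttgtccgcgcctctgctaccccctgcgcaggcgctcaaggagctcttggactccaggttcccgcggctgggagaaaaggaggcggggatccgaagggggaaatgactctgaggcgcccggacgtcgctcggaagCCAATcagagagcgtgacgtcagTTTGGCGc
CDT1, + strand, chr16:88803539-88803788: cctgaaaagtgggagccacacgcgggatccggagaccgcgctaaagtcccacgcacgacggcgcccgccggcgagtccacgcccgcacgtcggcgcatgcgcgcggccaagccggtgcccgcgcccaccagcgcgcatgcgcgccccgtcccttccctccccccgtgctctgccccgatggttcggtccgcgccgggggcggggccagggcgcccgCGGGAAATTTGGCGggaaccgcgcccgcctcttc
GMNN (start at 24775413), + strand, chr6:24775163-24775412: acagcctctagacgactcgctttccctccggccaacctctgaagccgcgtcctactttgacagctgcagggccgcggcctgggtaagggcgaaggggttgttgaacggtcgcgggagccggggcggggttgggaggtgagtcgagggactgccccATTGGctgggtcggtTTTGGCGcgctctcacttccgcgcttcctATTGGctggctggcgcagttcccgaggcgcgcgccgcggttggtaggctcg
PCNA outer start, - strand, chr20:5126623-5126872: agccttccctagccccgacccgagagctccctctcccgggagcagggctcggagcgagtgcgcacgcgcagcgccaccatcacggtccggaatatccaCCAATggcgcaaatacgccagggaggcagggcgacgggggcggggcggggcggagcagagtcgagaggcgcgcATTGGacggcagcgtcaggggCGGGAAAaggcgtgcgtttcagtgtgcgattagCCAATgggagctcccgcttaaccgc
PCNA inner start, - strand, chr20:5119959-5120208: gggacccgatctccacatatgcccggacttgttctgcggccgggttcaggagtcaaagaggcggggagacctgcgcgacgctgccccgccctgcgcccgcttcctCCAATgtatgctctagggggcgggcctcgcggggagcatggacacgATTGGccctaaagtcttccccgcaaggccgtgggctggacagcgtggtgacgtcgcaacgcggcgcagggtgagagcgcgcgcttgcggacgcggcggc
DDB1, - strand, chr11:61333106-61333355: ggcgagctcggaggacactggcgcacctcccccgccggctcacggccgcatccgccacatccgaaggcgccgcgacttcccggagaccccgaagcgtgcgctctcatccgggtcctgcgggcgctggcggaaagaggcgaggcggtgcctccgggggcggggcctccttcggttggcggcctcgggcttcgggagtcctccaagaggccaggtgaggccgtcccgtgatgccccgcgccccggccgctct

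E2F-type letters stand close to the start of DTL, 8 to 2 bases before it, with a CCAAT box 31 to 27 bases before it. In CDT1 an E2F-type match on each strand lies side by side, 34 to 28 and 27 to 21 bases before the start, and the marked run is both together. GMNN has E2F-type letters 80 to 74 bases before the start, between a pair of CCAAT boxes. The outer PCNA start has them 58 to 52 bases before it, with 3 CCAAT boxes, while the inner PCNA start has 2 CCAAT boxes and no E2F-type letters. E2F factors drive many S-phase genes, and NF-Y binds CCAAT boxes. E2F-type letters were found in 5 of the 9 genes (CDT1, CUL4A, DTL, GMNN and PCNA), in 5 of their 17 windows, against 6.1% of 35116 windows of the same length over all genes in the RefSeq table. The CCAAT box was found in 4 of the genes (CUL4B, DTL, GMNN and PCNA), in 6 of 17 windows, against 32.0% of all windows. The GC box (GGGCGG, either strand) was found in 8 of the genes, all but DTL, in 11 of 17 windows, against 42.6% of all windows. The E-box CACGTG was found before starts of CUL4B and RBX1, in 2 of 17 windows, against 6.3% of all windows. That CUL4B start, at 120559898, lay in no peak of either table. The CRE-type TGACGT was found before the DTL start and the inner PCNA start, in 2 of 17 windows, against 7.1% of all windows. In DTL there is a CRE-type match on each strand, 17 to 12 and 15 to 10 bases before the start, and these overlap. The letters TTTGAA, a CHR-type element, were found before 1 CUL4B start only among the members, in 1 of 17 windows (13.3% of all windows). That start, at 120575532, also lay in no peak of either table. Some GC-box matches overlap one another, and 1 before the outer PCNA start overlaps the E2F-type letters. The member windows had a median GC content of 67.6%, between 42.4% and 80.8%, against a median of 58.0% over all windows, and a median of 27 CpG sites against 11. The background shares are per window, so the counts of genes have no background beside them. Genes with more windows had more chances of a match, and some windows of the same gene overlap. A match describes the letters only, and the motifs were chosen after the sequences had been seen.

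At least 1 start site lay in a first-table peak for 8 of the 9 genes (88.9%), against 7752 of 15843 protein-coding genes with listed starts (48.9%). The second table gave 8 of the 9 genes too, against 7769 genes (49.0%). Genes with more starts had more chances to be counted, which was not allowed for, and some protein-coding genes had no listed start. CDT1 was the exception: its start at position 88803789 of chromosome 16 lay in no peak of either table, and the nearest peak, named for APRT, began 7415 bp away. For DTL and CUL4A the open start site was hidden from the search by symbol, because each shares its peak with a neighbour. The DTL start fell in the peak named INTS7, and 3 of the 4 CUL4A starts fell in the peak named PCID2, with the fourth 151 bp outside the first-table peak. Shared start regions were common among the other genes as well. Of the 7 promoter peaks of the members, 4 (57.1%) covered starts of more than 1 gene, against 2021 of 7447 promoter peaks with a start (27.1%). DDB1 shared its peak with TKFC, SKP2 with LMBRD2, the outer PCNA peak with CDS2 and the inner PCNA peak with the antisense RNA PCNA-AS1. ATAC-seq reads carry no strand, so the share of each gene in such a peak cannot be told apart.

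**Figure D1:**
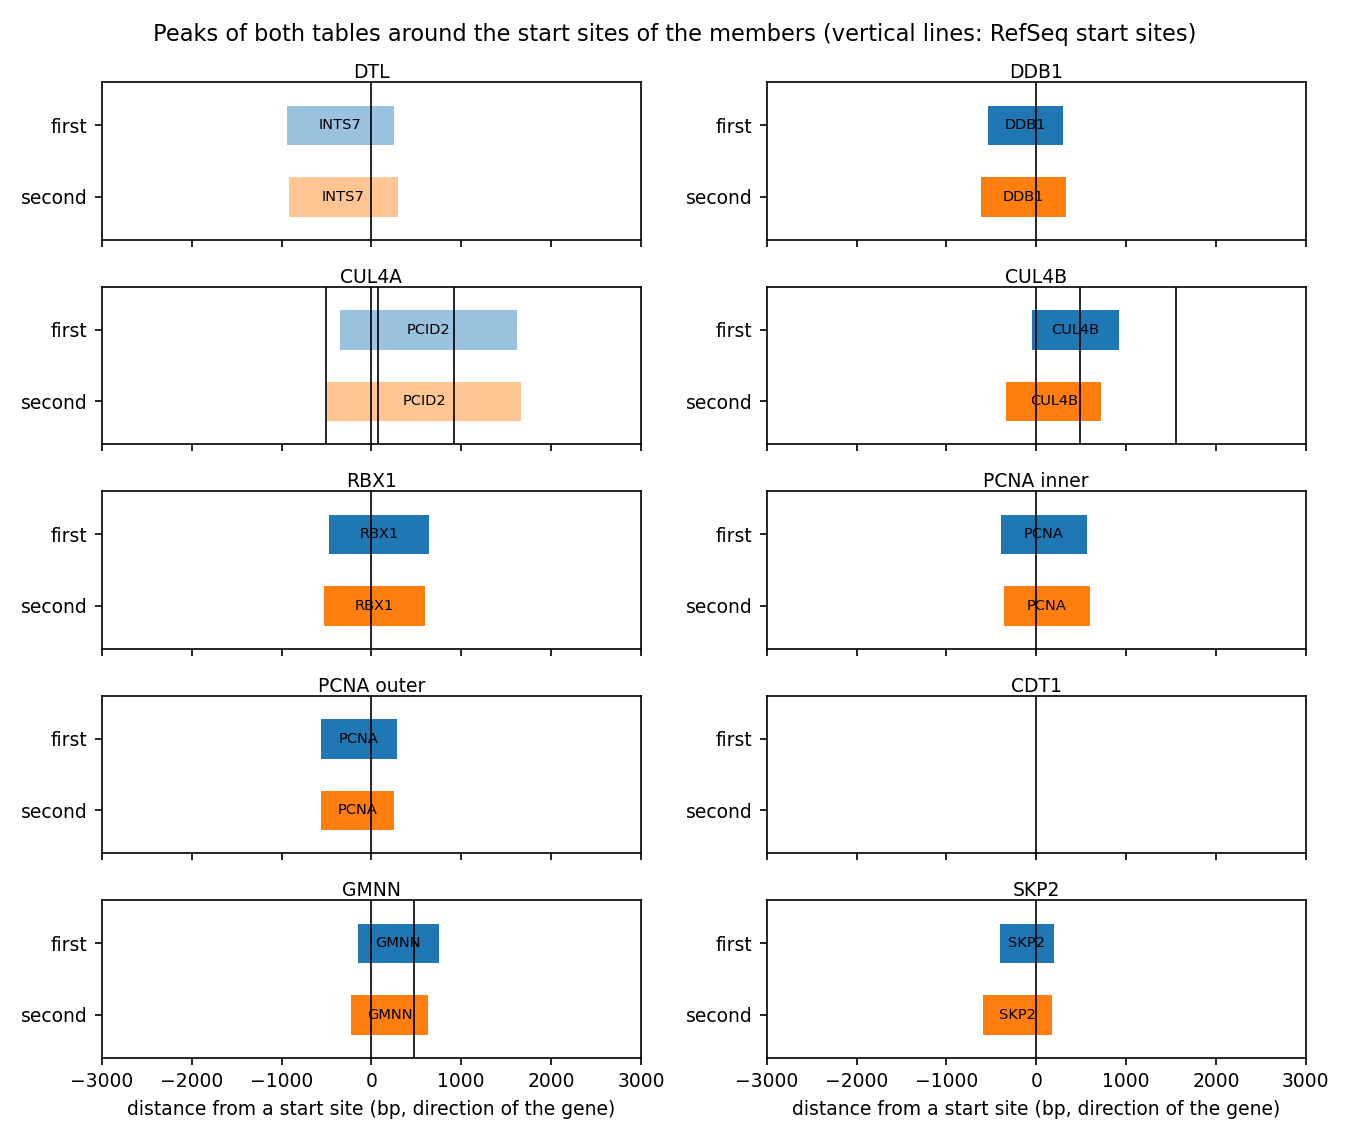
Peaks around the start sites of the CRL4-CDT2 genes, with distance from a start site in bp along the horizontal axis and a panel for each gene, PCNA having one for each start. Vertical lines are RefSeq start sites, bars are peaks of the first table (blue) and the second (orange), and faded bars are peaks that carry the symbol of a neighbouring gene, as at DTL and CUL4A. The CDT1 start has no peak over it.

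The number of reads in peaks and the shared shift of the tables bear on every value that follows. The second table compares the knockout and control libraries numbered 2, with 2091322 and 5342041 reads in peaks, so its differences rest on 1 library per group and have no replicate check. The first table does not name its libraries, so their number, and whether they include those numbered 2, is not known. Levels for each group in it were worked out from its mean level and fold change, so no spread between libraries can be given. The median log2 fold change over all peaks was -0.87 with quartiles of -1.17 and -0.53 in the first of the authors' deposited tables, and -1.23 with quartiles of -1.43 and -1.01 in the second. Of 8 myeloid and progenitor marker genes, 5 had a promoter peak (SPI1, CEBPA, CD34, KIT and PTPRC) and MPO, CD33 and ELANE had no peak, while 2 of 8 markers of other cell types (EPCAM and COL1A1) had a promoter peak. CD3E and CDH5 had a peak outside the promoter class, so 5 of 8 and 4 of 8 markers had any peak.

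Every member peak had a lower level in SETD8 knockout cells than in control cells, as did most peaks of both tables, and no member passed the authors' test. The fold change was below 0 at 9 of 9 (first) and 8 of 8 (second) member peaks of the authors' deposited tables, against 92.3% (first) and 98.6% (second) of all peaks, so these counts were near the background. A member peak was lower by at least 1 on the log2 scale at 2 of 9 peaks, DDB1 and the inner PCNA peak, against 38.9% of all peaks of the authors' first deposited table. All 8 were lower by at least 1 in the authors' second deposited table, against 76.1% of all its peaks. Centred on the median of its own table, 0 of 9 and 0 of 8 member peaks were lower by at least 1. The libraries are bulk, so fewer cells with an open site and less opening per cell cannot be told apart. No member passed an adjusted p of 0.05 in either of the authors' deposited tables, where the share of all peaks that passed was 0 in the first and 0 in the second. The lowest adjusted p over all peaks was 0.731 (first) and 0.578 (second) in the authors' deposited tables. The second had a single library per group behind its test, and the number behind the first is not known. The lowest unadjusted p of a member was 0.108 (first, inner PCNA) and 0.298 (second, RBX1 distal) in the authors' deposited tables, so 0 were under 0.05, against 329 and 19 of all peaks.

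**Figure D2:**
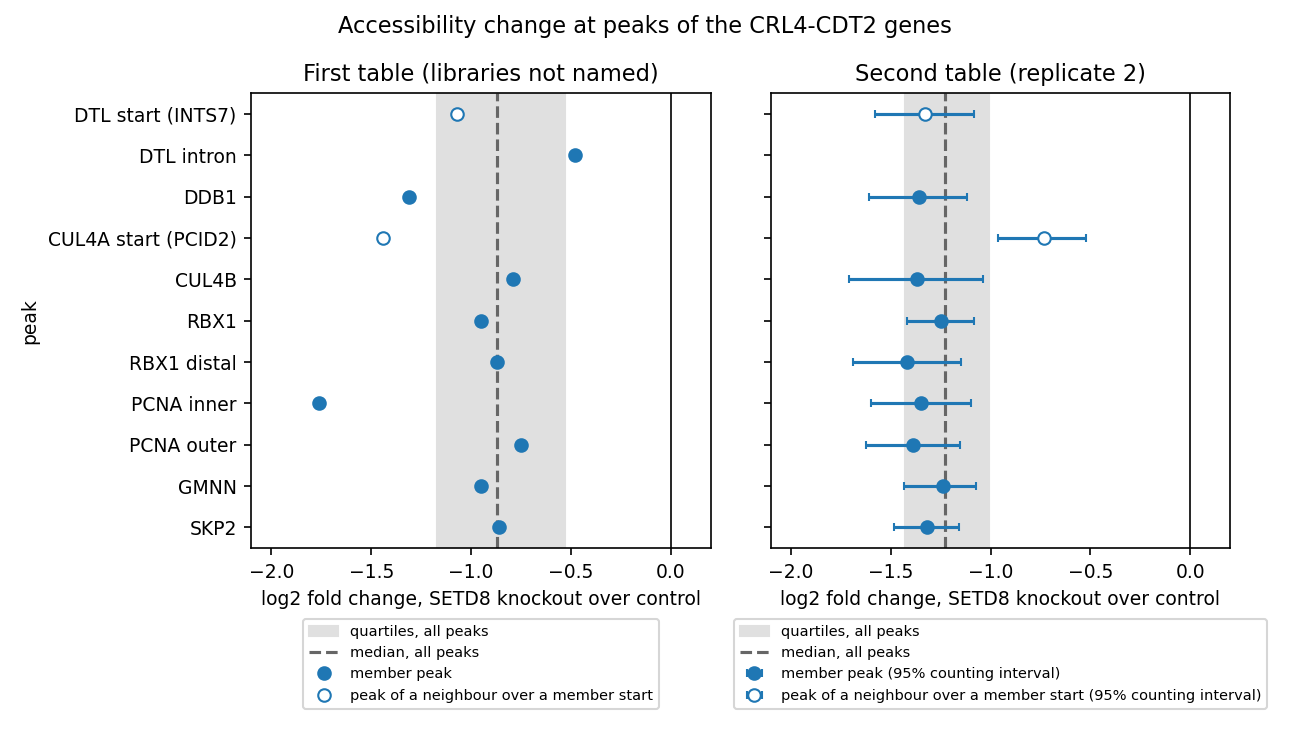
Deposited log2 fold change (SETD8 knockout over control, horizontal axis) of each member peak in the first table on the left and the second on the right, with grey for the quartiles and a dashed line for the median of all peaks. Bars on the right are 95% intervals for counting error only, and open circles are peaks named for INTS7 and PCID2 that cover starts of DTL and CUL4A. The members spread from -1.76 to -0.48 on the left and from -1.42 to -1.24 on the right.

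The substrate receptor gene DTL had 1 peak of its own, and it was not at the start. It lay in an intron at chr1:212088440-212088797, 52692 bp beyond the RefSeq start site. The deposited annotation put it 8071 bp from the start of another DTL transcript. This was the weakest member peak, at percentile 27.9 of mean level. From the mean level and fold change, its level came to 67.2 normalised reads in knockout cells and 93.7 in control cells. That is a log2 fold change of -0.48 (unadjusted p 0.603 and adjusted p 0.762 in the authors' first deposited table), the highest of any member. Weak peaks had higher fold changes in that table, and relative to peaks of like level DTL was 0.27 higher. No peak of the second table overlapped it. The start of DTL was open under the INTS7 name, at chr1:212034805-212035997. This peak had 186 normalised reads in the knockout library and 468 in the control library of the authors' second deposited table. The authors' deposited tables gave log2 fold changes of -1.07 (first) and -1.33 (second, 95% interval -1.58 to -1.08). Relative to the table medians these were -0.20 and -0.10. INTS7, which encodes a subunit of the Integrator complex, starts in the same peak.

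The adaptor gene DDB1 had its peak over the start, at chr11:61332810-61333643. It held 186 normalised reads in the knockout library and 478 in the control library of the authors' second deposited table, 39.0% of the control level. The log2 fold change there was -1.36, with a 95% interval of -1.61 to -1.12, as that deposited table of the authors has it. The authors' first deposited table gave -1.31 (unadjusted p 0.229, adjusted p 0.731), from levels of 159 in knockout cells and 394 in control cells. DDB1 was the lowest of the strongest promoter peaks of the 6 genes in the first table, at percentile 16.4 of all its peaks.

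Some starts of both scaffold genes lay in peaks, CUL4B under its own name and CUL4A under that of PCID2, and their values differed between the tables. CUL4B had a peak over 2 of its 4 starts, at chrX:120560535-120561498. Its level was 102 normalised reads in the knockout library and 263 in the control library of the authors' second deposited table, and its fold change was -1.37 (95% interval -1.71 to -1.04). The authors' first deposited table gave CUL4B -0.79 (adjusted p 0.731), from 360 normalised reads in knockout cells and 622 in control cells. Relative to the table medians the CUL4B values were 0.08 (first) and -0.14 (second). Per kb of peak its mean level was at percentile 87.1 of the first table and at percentile 23.1 of the second, where the peak runs from 120560729 to 120561789.

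CUL4A starts lay in the PCID2 peak at chr13:113208344-113210319. This peak had 261 normalised reads in the knockout library and 437 in the control library of the authors' second deposited table, 60.3% of the control level. Its log2 fold change of -0.73 (95% interval -0.96 to -0.52, authors' second deposited table) was at percentile 91.0 of all peaks, with an interval wholly above the table median. The authors' first deposited table put the same peak on the other side, with -1.44 (unadjusted p 0.188, adjusted p 0.731) at percentile 10.5. Relative to the table medians the values were 0.50 (second) and -0.57 (first). PCID2, a component of the nuclear mRNA export machinery, shares the peak, and it was not among the peaks chosen by symbol.

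RBX1, the RING subunit, had a promoter peak and a distal one. The promoter peak at chr22:40950901-40952020 held 410 normalised reads in the knockout library and 976 in the control library of the authors' second deposited table. The authors' deposited tables gave fold changes of -1.25 (second, 95% interval -1.42 to -1.08) and -0.95 (first, adjusted p 0.731), the first from 354 normalised reads in knockout cells and 684 in control cells. The distal peak at chr22:41021960-41022960 lies 48651 bp beyond the end of RBX1, overlaps no RefSeq gene and took the RBX1 symbol as the nearest gene, which need not be its target. It had 154 normalised reads in the knockout library and 410 in the control library of the authors' second deposited table. There its fold change was -1.42 (95% interval -1.69 to -1.15), the lowest of the 8 member peaks in the authors' second deposited table. The authors' first deposited table gave the distal peak -0.87, the median of all peaks, from 146 in knockout cells and 267 in control cells. The distal peak minus the promoter peak came to 0.08 (first table) and -0.17 (second table).

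**Figure D3:**
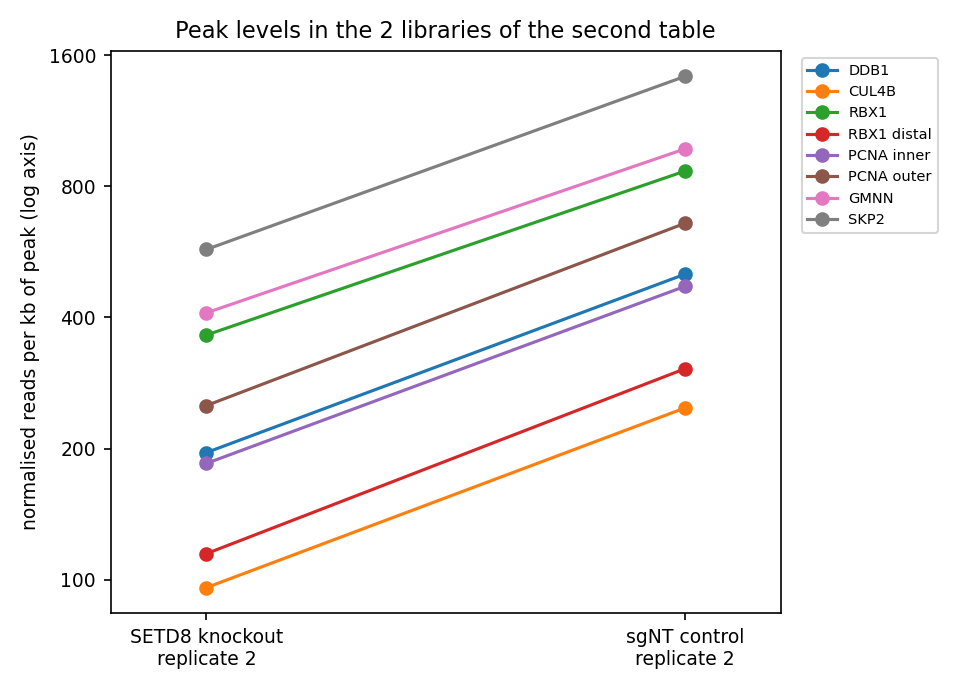
Normalised reads per kb of peak in the knockout and control libraries numbered 2, for the 8 member peaks joined in the second table, with 1 library per group. SKP2, GMNN and the RBX1 promoter were highest in both libraries, and every member was lower in the knockout library.

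PCNA, the sliding clamp that presents substrates to CDT2, had a peak at each of its 2 starts. The inner peak at chr20:5119398-5120348 had the lowest fold change of any member in the authors' first deposited table, -1.76 (unadjusted p 0.108, adjusted p 0.731). That stood at percentile 3.13 of all peaks, and -0.76 relative to peaks of like level, with levels of 146 normalised reads in knockout cells and 493 in control cells. The outer peak at chr20:5126342-5127183 had -0.75 (adjusted p 0.732) in the authors' first deposited table, from 398 in knockout cells and 669 in control cells. Inner minus outer was -1.01 in the first table.

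The authors' second deposited table did not show that difference. The inner PCNA peak had 179 normalised reads in the knockout library and 455 in the control library, and the fold change was -1.35 (95% interval -1.60 to -1.10) in that deposited table of the authors. The outer peak had 204 in the knockout library and 534 in the control library, and the authors' second deposited table gave -1.39 (95% interval -1.62 to -1.15). Inner minus outer was 0.04 there, and the intervals overlapped. The difference itself was not tested in either table. For the promoter peak of the next gene, TMEM230, the authors' deposited tables gave -1.07 (first) and -1.46 (second).

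Of the pair that controls licensing, only GMNN had a peak. Its peak at chr6:24774787-24775684 covers both GMNN starts and held 352 normalised reads in the knockout library and 838 in the control library of the authors' second deposited table. The authors' deposited tables gave fold changes of -1.24 (second, 95% interval -1.43 to -1.07) and -0.95 (first, adjusted p 0.731), and levels in the first came to 404 in knockout cells and 780 in control cells. It was the highest fold change of the 8 member peaks in the second table. CDT1 could not be measured at its start. The APRT peak 7415 bp away had 246 normalised reads in the knockout library and 498 in the control library, and the authors' deposited tables gave it -1.02 (second) and -0.53 (first).

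SKP2, the receptor of the SCF ligase, had the strongest member promoter. Its peak at chr5:36151702-36152310 held 437 normalised reads in the knockout library and 1090 in the control library of the authors' second deposited table. Per kb of peak that was 573 in the knockout library and 1430 in the control library. Its mean level per kb was at percentile 99.8 of all peaks of that table and at percentile 99.3 of the first. The authors' deposited tables gave fold changes of -1.32 (second, 95% interval -1.48 to -1.16) and -0.86 (first, adjusted p 0.731). The first-table value, from 587 in knockout cells and 1065 in control cells, was 0.01 above the median of all peaks.

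Set against all peaks, the member peaks sat near the middle. Of the 9 in the first table, 4 were below the median, 1 was at it and 4 were above it, and 6 lay inside the quartiles. In the second, all 8 were below the median and all 8 inside the quartiles, and the 95% interval of each of the 8 held the median of all peaks. The intervals also all overlapped one another, as the highest lower bound was -1.42 and the lowest upper bound -1.16. The 8 member peaks differed from each other by no more than 0.18 in the second table, and counting error alone gave each an interval wider than that. In the first table the span was 1.28. In total reads the member peaks were strong, with a median level at percentile 90.8 of the first table and at percentile 77.3 of the second. The background was all peaks, promoter or not, and peak width was not allowed for. Per kb of peak, member percentiles ran from 43.7 (RBX1 distal) to 99.3 (SKP2) in the first table. In the second they ran from 23.1 (CUL4B) to 99.8 (SKP2).

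**Figure D4:**
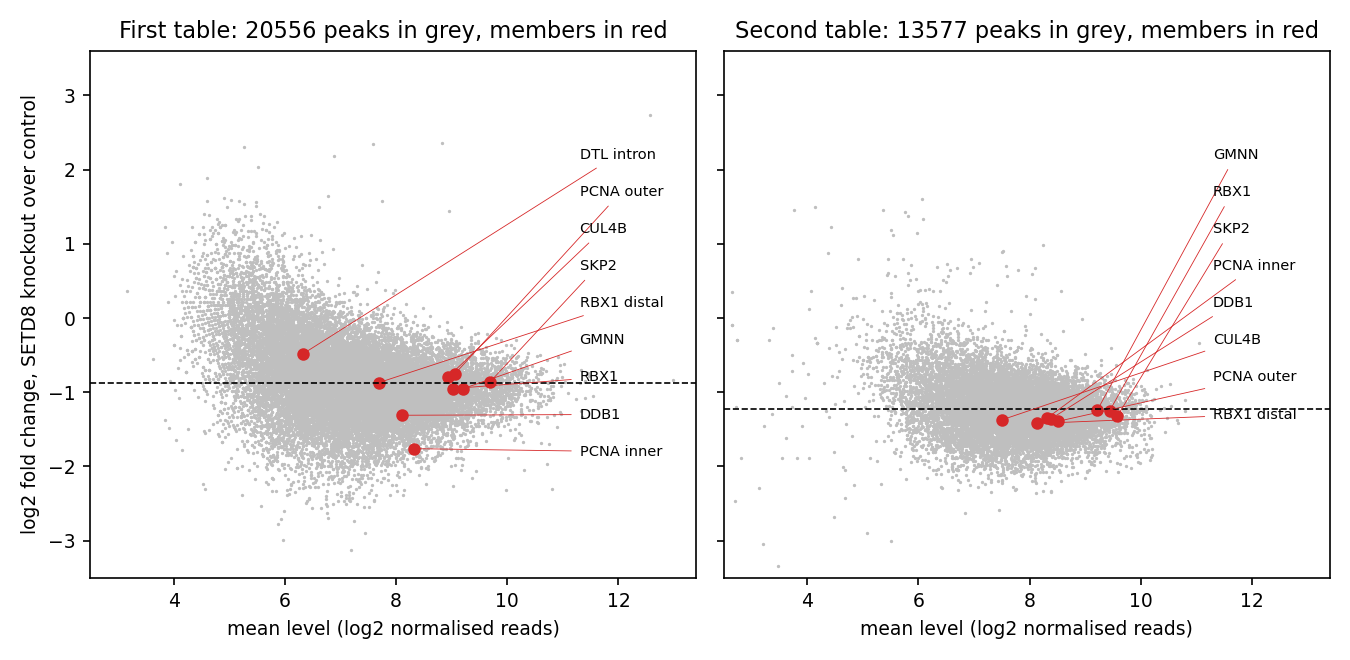
Log2 fold change (SETD8 knockout over control, vertical axis) against mean log2 level (horizontal axis) of all peaks in grey, with the member peaks in colour, for the first table on the left and the second on the right. The horizontal axis ends before the strongest peaks, which leaves out 11 peaks of the first table and 1 of the second. Most member peaks lie at levels above the middle of their table. The exceptions are DTL at percentile 27.9 of the first table and CUL4B at percentile 42.0 of the second. The inner PCNA peak is at percentile 3.13 of fold change in the first.

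The wider pathway was described by the strongest promoter peak of each gene, counting only peaks that carry the gene's own symbol. As with DTL and CUL4A, some genes had a start in a first-table peak but no promoter peak of their own symbol. NEDD8, UBE2M, DCAF11, MCM2 and RNF7 were among them and are left out of the list medians, while UBA3 and CUL1 had neither. Over the 6 members with a promoter peak of their own symbol the median fold change was -0.91 in the authors' first deposited table, against -0.93 over the 10187 genes with a promoter peak. One of these 6, DDB1, was lower by at least 1, against 43.3% of all genes in that table. The second gave a median of -1.34 for the members, against -1.25 over 8379 genes, with 6 of 6 lower by at least 1, against 83.1% of all genes in the authors' second deposited table. No gene of any list passed an adjusted p of 0.05 in either of the authors' deposited tables.

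Of the other substrates of the ligase, all 6 (KMT5A, CDKN1A, TDG, ERCC5, POLD4 and FBH1) had a promoter peak in the first table, with a median of -0.76 and 1 lower by at least 1 in the authors' first deposited table. The 5 with one in the second had a median of -1.45, all lower by at least 1, in the authors' second deposited table. Over all genes with a promoter peak, 43.3% (first) and 83.1% (second) were lower by at least 1 in the authors' deposited tables. KMT5A, the gene edited here, had -0.82 (first) and -1.45 (second) in the authors' deposited tables, the second from 251 normalised reads in the knockout library and 685 in the control library. Cas9 cutting in an exon can disable a gene and leave its promoter as it was, so this peak does not check the knockout. CDKN1A had the lowest value of the substrates in the authors' first deposited table, -1.01, and ERCC5, an excision-repair nuclease, the highest, -0.29. ERCC5 had -1.47 in the authors' second deposited table. CDKN1A had -1.26 there, at another of its promoter peaks.

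Next came the genes of other CRL4 receptors and DDB1 partners, and those that switch cullins on and off. Of 19 receptors and DDB1 partners, 13 had a promoter peak, with a median of -0.84 and 4 lower by at least 1 in the authors' first deposited table. In the second of these deposited tables of the authors the median was -1.25, with 11 of 13 lower by at least 1. Over all genes with a promoter peak, 43.3% (first) and 83.1% (second) were lower by at least 1 in the authors' deposited tables. ERCC8, a receptor in transcription-coupled repair, had the lowest first-table fold change of this list, and the authors' deposited tables gave -1.34 (first) and -1.22 (second). CRBN, the receptor that thalidomide binds, had the highest, with -0.53 (first) and -1.25 (second) in the authors' deposited tables. Neddylation and the COP9 signalosome add and remove NEDD8, which activates cullins. Of 22 genes of this list, 13 had a promoter peak, with a median of -1.01 and 7 lower by at least 1 in the authors' first deposited table. The authors' second deposited table had a median of -1.21 over 12 genes, all 12 lower by at least 1. These counts stand beside the same shares of all genes, 43.3% (first) and 83.1% (second), in the authors' deposited tables. The signalosome subunit gene COPS8 had -1.80 (first) and -1.07 (second) in the authors' deposited tables, and COPS4, another subunit, had -0.48 and -1.16.

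For the next lists too, the share of all genes lower by at least 1 was 43.3% (first) and 83.1% (second) in the authors' deposited tables. Of 6 ubiquitin-conjugating enzymes, 5 had a promoter peak in the first table. Medians were -0.91 (first, 1 of 5 lower by at least 1) and -1.07 (second, 3 of 5) in the authors' deposited tables. Of these enzymes UBE2R2 was lowest and CDC34, its close relative, highest in the first table. The authors' deposited tables gave UBE2R2 -1.08 (first) and -0.96 (second), and CDC34 -0.55 and -1.13. Of 6 other cullins and RING proteins, 5 had a promoter peak in the first table. Medians were -1.05 (first, 3 of 5 lower by at least 1) and -1.07 (second, 3 of 5) in the authors' deposited tables. There CUL9 had -1.52 (first) and -0.79 (second), and CUL2, the scaffold of the VHL ligase, -0.69 and -1.07, all from the authors' deposited tables. Of 10 SCF and APC/C partners, 8 had a promoter peak in the first table. Medians were -0.80 (first, 3 of 8 lower by at least 1) and -1.24 (second, 6 of 8) in the authors' deposited tables. FBXO11, an F-box receptor that targets CDT2 itself, had -1.46 (first) and -1.80 (second) in the authors' deposited tables, and BTRC, another F-box receptor, had -0.35 and -1.35.

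Replication genes made up the remaining lists. Their counts also stand beside 43.3% (first) and 83.1% (second) of all genes lower by at least 1 in the authors' deposited tables. Of 14 loaders, unloaders and partners of PCNA, 9 had a promoter peak in the first table. Medians were -0.88 (first, 2 of 9 lower by at least 1) and -1.16 (second, 5 of 8) in the authors' deposited tables. RAD18, the ligase that ubiquitinates PCNA at stalled forks, had -1.21 (first) and -1.28 (second) in the authors' deposited tables, and the clamp-loader gene RFC5 had -0.45 and -1.10. Of 14 origin licensing genes, whose products act with CDT1 to load the MCM helicase, 13 had a promoter peak in the first table. Medians were -1.06 (first, 9 of 13 lower by at least 1) and -1.34 (second, 12 of 13) in the authors' deposited tables. ORC5, an origin recognition subunit, had -1.51 (first) and -1.81 (second) in the authors' deposited tables, and the helicase gene MCM5 had -0.49 and -1.18. List medians lay on both sides of the median of all genes in each table, and no p or interval was computed for a list.

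**Figure D5:**
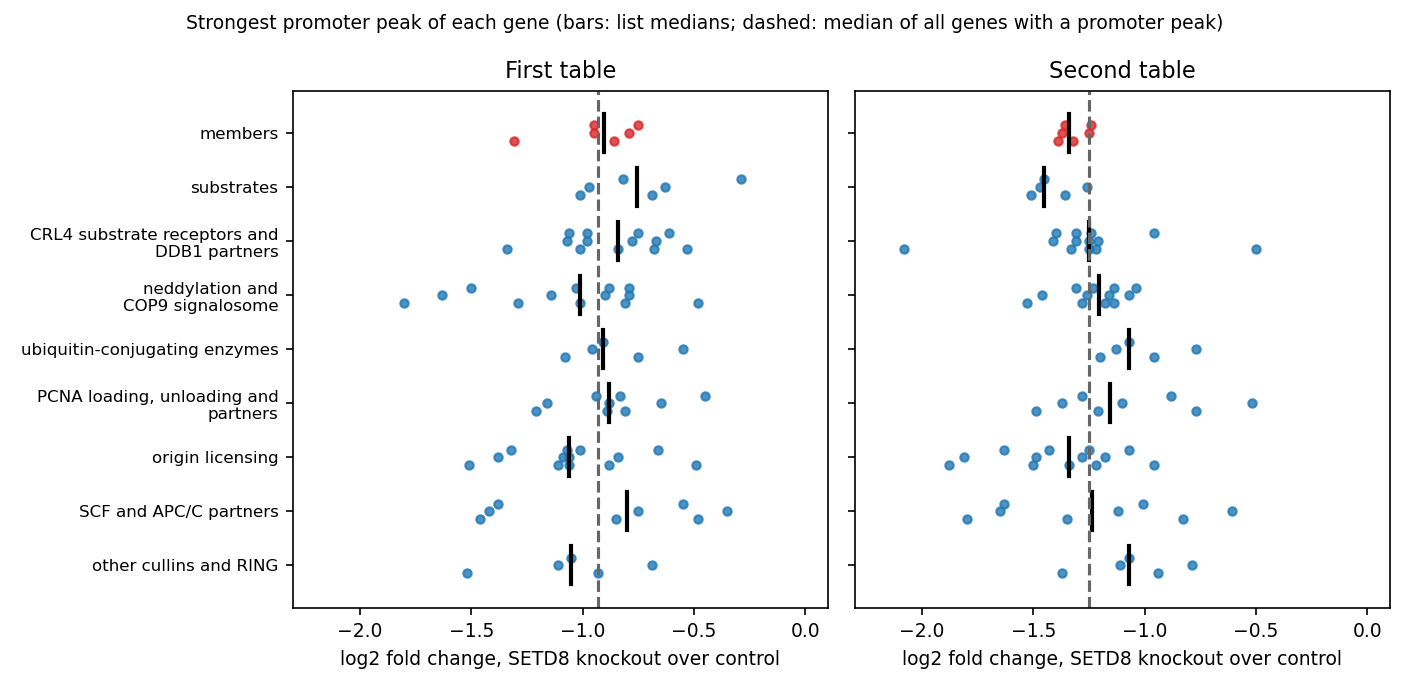
Log2 fold change (SETD8 knockout over control) of the strongest promoter peak of each gene, by list, for the first table on the left and the second on the right, with 1 point per gene, a mark at each list median and a dashed line at the median of all genes with a promoter peak. List medians run from -1.06 to -0.76 on the left and from -1.45 to -1.07 on the right, apart from the members themselves.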

How the data were processed

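ATAC-seq was run on 4 libraries, 2 SETD8 knockout and 2 sgNT control, grouped by title. Tools named, per the submitters' processing notes, were MACS2 2.1.2, Bowtie2, ChIPseeker, cutadapt, deepTools and SAMtools, with the build hg38. Order, settings, transposase shift, duplicate removal and library scaling are not given in the sources used here. Whether libraries of 1 group were separate cultures is not stated.

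The authors deposited 2 comparison tables with log2 levels and log2 fold changes. Per the file headers the second covers the libraries numbered 2. The first has numbered columns, read by order and range, takes its direction from its name, and has 2 columns of sample values that were not used, as their libraries are not named. Each p-value is the authors' own, deposited with an adjusted p-value, and no test was added, so the spread behind it is not known here.

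Deposited levels of the second table were turned to reads: 100% of 741 weak knockout values and 100% of 205 weak control values (under 40 normalised reads, within 0.0055 on the log2 scale) were whole multiples of 1 and of 0.9185 reads. Intervals are exact conditional 95% intervals and cover counting error only. Second-table peaks took the gene of the first-table peak they overlapped most, by at least 1 bp. First-table group levels were solved from mean level and fold change. Promoter means the deposited annotation class, within 3 kb of a start. Trends were removed by 20 level bins or 5 Mb bins with at least 10 other peaks. The genes named from each list were those with the lowest and highest first-table fold change at their strongest promoter peak, plus KMT5A and CDKN1A. INTS7, PCID2, APRT, TMEM230 and the cell type markers were added after values were seen. The members and lists were chosen with earlier results of these data known. Python 3.11.15 with numpy 2.4.6, pandas 2.3.3, scipy 1.17.1 and matplotlib 3.10.9 was used, tested on simulated data.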

Additional observations from a re-analysis of the deposited data

How the results depend on the processing

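Medians over the members' strongest promoter peaks followed the scaling of the tables. Centring on the median of all peaks took the median from -0.905 to -0.035 in the first table and from -1.34 to -0.11 in the second, and removing the level trend took it to 0.03 and to -0.055. Rescaling the second table to reads in peaks shifts all values by 1.23, which to 2 decimals is the size of the shift by centring and gives the same values. In the first table the median was -0.95 with all promoter peaks, -0.95 with the INTS7 and PCID2 peaks added (an alternative chosen after seeing the data), and -0.95 to -0.86 when 1 gene was left out. Of 9 member peaks in the first table, 8 were lower by at least 0.5, 1 by at least 1.5, 0 by at least 1 below the table median, and 4 were lower by at least 1 once the INTS7 and PCID2 peaks were added. In the second, 0 of 8 were lower by at least 1.5 and 0 by at least 1 below the median. An adjusted p of 0.1 called 0 member peaks in both tables. The centred list medians ran from -0.19 to 0.115 in the first table (5 of 8 below 0) and from -0.22 to 0.16 in the second (4 of 8 below 0). Of 24 other settings of these summary values, 10 stayed close to the reported value and 14 did not, all of the latter given here. The limit for close was much narrower for first-table medians than for second-table ones, where it followed the counting intervals. The split therefore does not measure how robust either table is. No paired analysis was possible because the first table carries no replicate numbers and reads of all 4 libraries were not used here. For the same reason edgeR, DESeq2 and leaving out single libraries were not run. A regional trend could not be computed for PCNA and GMNN in the second table, as fewer than 10 other peaks lay in their bins.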
